A study of Rattus norvegicus with 6 samples.

Results

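The genes Gfap, Vim, Nes, Nefm and Nefl encode intermediate filament proteins, and their transcripts were compared between oligodendrocyte progenitor cells (OPCs) cultured with and without fibrinogen. The 5 genes were taken by name as a gene family, in view of earlier results of these data, and all 5 were measured, among 13355 genes on the array. Each was read by 1 probe set, a group of short probes summarised to 1 value per array: 10747948 for Gfap, 10796445 for Vim, 10816409 for Nes, 10784809 for Nefm and 10781266 for Nefl. Primary OPCs, the dividing glial cells that give rise to oligodendrocytes, had been isolated from rat pups at postnatal day 1 to 2 and kept in proliferation medium with PDGF and NT3 before treatment. The fibrinogen group (3 arrays) had received fibrinogen, the soluble clotting protein of plasma, in differentiation medium for 48 h. The control group (3 arrays) is labelled unstimulated at 48 h. Its medium is not given in the sources used here, so an effect of medium and an effect of fibrinogen cannot be told apart where the media differed. No strain, sex or number of animals is given, and nothing says that the 3 arrays of a group came from separate cultures, so the p-values measure the spread between these arrays, which may be technical.

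Intermediate filaments are rope-like polymers that give a cell mechanical strength and hold its organelles in place. Vimentin (Vim) builds the filaments of immature glia and of many mesenchymal cells, and glial fibrillary acidic protein (Gfap) joins it in astrocytes, where both are known to accumulate when astrocytes become reactive. Nestin (Nes) does not polymerise alone and assembles with vimentin in dividing neural progenitors. The neurofilament light and medium chains (Nefl and Nefm) build the filaments of axons. Gfap and Vim belong to the type III filament proteins, and Nes, Nefl and Nefm to type IV.

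No start-site region was available for Nefm or Nefl, so the genes that rose cannot be compared here with those that did not. The start-site regions of the 3 genes that rose (Gfap, Vim and Nes, with values given in the paragraphs that follow) are shown. They are the 250 bases before each annotated start, from RefSeq on the rat assembly GRCr8, written 5′ to 3′ on the strand of the gene. Capitals mark matches, on either strand, to the motifs named after the sequences.

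Gfap (chr10:88361662-88361911, minus strand): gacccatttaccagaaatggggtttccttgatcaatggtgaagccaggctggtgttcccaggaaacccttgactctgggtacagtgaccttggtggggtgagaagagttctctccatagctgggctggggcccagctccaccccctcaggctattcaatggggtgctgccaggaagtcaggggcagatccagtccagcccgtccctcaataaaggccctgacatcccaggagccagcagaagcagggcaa
Vim (chr17:81577011-81577260, plus strand): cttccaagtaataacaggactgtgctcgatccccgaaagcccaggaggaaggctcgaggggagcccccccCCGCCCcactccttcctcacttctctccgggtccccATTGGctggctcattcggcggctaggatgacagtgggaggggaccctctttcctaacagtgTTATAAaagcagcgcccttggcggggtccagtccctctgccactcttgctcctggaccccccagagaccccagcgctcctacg
Nes (chr2:175736338-175736587, plus strand): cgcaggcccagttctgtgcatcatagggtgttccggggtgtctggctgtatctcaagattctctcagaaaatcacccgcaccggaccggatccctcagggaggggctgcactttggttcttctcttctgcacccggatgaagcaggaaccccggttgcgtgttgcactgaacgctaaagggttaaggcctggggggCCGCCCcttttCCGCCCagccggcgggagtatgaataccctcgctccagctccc

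The motifs searched on both strands were TATAA of the TATA box, CCAAT of the CCAAT box, GGGCGG of the Sp1 box, TGANTCA of AP-1 sites, TTCNNNGAA of STAT sites, GGCGCC of a SMAD element, CACGTG of an E-box, and the palindromic NFI site. The Vim window held TATAA on both strands in 1 overlapping stretch, from position -83 to -78 counted from the start, as well as CCAAT and GGGCGG once each. The Nes window held GGGCGG 2 times, and the Gfap window held none of the 8 motifs. Of 33469 rat promoter windows of the same length, 24.0% held TATAA, 34.0% CCAAT, 30.5% GGGCGG, 6.34% TGANTCA, 7.67% TTCNNNGAA, 8.69% GGCGCC, 5.59% CACGTG and 0.0359% the NFI palindrome. GC content was 57.6% in the Gfap window, 62.4% in that of Vim and 60.4% in that of Nes, against a median of 51.2% over all windows. The matches are descriptions of letters, not of binding.

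Gfap, Vim and Nes rose with fibrinogen, whereas Nefm and Nefl did not pass the test. Values are log2 expression, so a difference of 1 is a doubling, and a gene was called changed at an adjusted p under 0.05 in limma, adjusted over all genes. Of the 5 genes, 3 rose and none fell, while 7.16% of all 13355 genes were called in either direction and 4.16% were called higher. Over all genes 555 rose and 401 fell, and after the median of each array was set to the same value, 434 rose and 516 fell. The groups did not overlap for Gfap, Vim and Nes, and they did not overlap for 27.0% of all genes. The array medians over all probes were 5.78, 5.80 and 5.80 in control and 5.84 on each fibrinogen array. In bulk RNA, more cells of a type and more RNA per cell cannot be told apart.

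Gfap was at 9.67, 9.75 and 9.61 on the control arrays and at 10.66, 10.71 and 10.67 on the fibrinogen arrays. All 3 fibrinogen values lay above all control values, and the range within either group was small beside the gap. The mean went from 9.68 ± 0.07 to 10.68 ± 0.03 (SD, n = 3), a 2.00-fold rise (log2 fold change 1.00, SE 0.07, 95% interval 0.83 to 1.18, limma adjusted p = 0.00162). In the order of log2 fold changes from the highest, Gfap stood at place 38 of 13355 genes. The call held with any single array left out (adjusted p from 0.00821 to 0.0143).

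Vim was at 10.43, 10.46 and 10.37 in control and at 11.28, 11.17 and 11.29 with fibrinogen. The groups were again apart, with the lowest fibrinogen value above the highest control value. The rise from 10.42 ± 0.05 to 11.25 ± 0.07 (SD, n = 3) was 1.77-fold (log2 fold change 0.83, SE 0.07, 95% interval 0.65 to 1.00, limma adjusted p = 0.00216). Vim took place 103 in the same order and kept its call with any single array left out (adjusted p from 0.0101 to 0.0179).

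Nes was at 6.20, 6.09 and 6.26 in control and at 6.77, 6.61 and 6.90 with fibrinogen. The groups did not overlap, but the fibrinogen arrays spread more than the control arrays. The rise from 6.18 ± 0.09 to 6.76 ± 0.15 (SD, n = 3) was 1.49-fold (log2 fold change 0.58, SE 0.10, 95% interval 0.35 to 0.81, limma adjusted p = 0.0173). The call of Nes was lost without control 2, fibrinogen 1 or fibrinogen 3 (adjusted p = 0.0527, 0.0735 and 0.0625) as well as in the unmoderated test (adjusted p = 0.0724).

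The neurofilament genes gave overlapping groups. Nefm was at 6.38, 6.72 and 6.26 in control and at 6.56, 6.59 and 6.54 with fibrinogen, so that all 3 fibrinogen values lay inside the control range. Its log2 fold change was 0.11 (SE 0.12, 95% interval -0.18 to 0.40, limma adjusted p = 0.676). Control 2 was the highest Nefm array, and without it the log2 fold change was 0.24 (adjusted p = 0.175). Nefl was at 5.35, 5.55 and 5.36 in control and at 5.34, 5.58 and 5.43 with fibrinogen, nearly the same range in both groups. Its log2 fold change was 0.03 (SE 0.10, 95% interval -0.20 to 0.26, limma adjusted p = 0.904), and it was -0.02 with each array centred on its median. The Nefl probe lay below the median of the arrays, where no detection call shows whether a probe measures transcript or background. The interval of either gene leaves room for a small change in either direction.

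**Figure D1:**
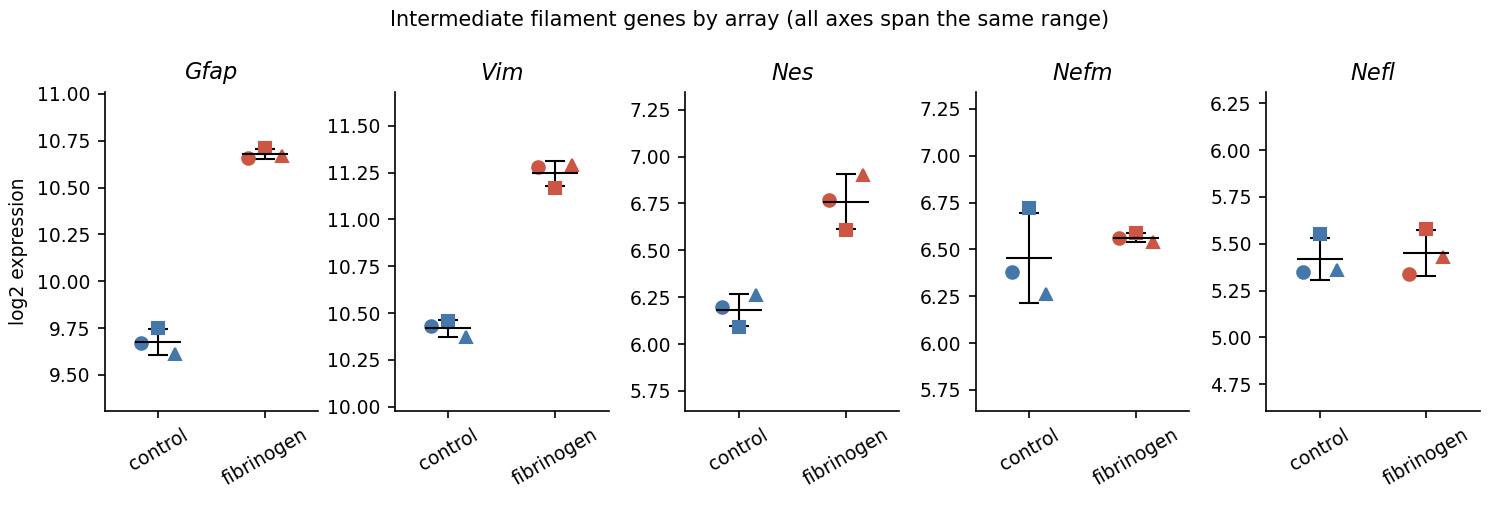
Log2 expression of Gfap, Vim, Nes, Nefm and Nefl on each of the 3 control (blue) and 3 fibrinogen (red) arrays, with the mean and SD in black; circles, squares and triangles are replicates 1, 2 and 3, and each vertical axis covers the same span but has its own position. The fibrinogen arrays of Gfap sit between 10.66 and 10.71 and those of control between 9.61 and 9.75, while the groups of Nefm and Nefl overlap.

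Gfap changed most among the 5 genes on these arrays, followed by Vim, Nes, Nefm and Nefl. The difference between Gfap and another gene was taken within each array and compared between groups by exact permutation (two-sided), where 3 arrays against 3 give no p below 0.1. Gfap minus Vim was -0.76, -0.71 and -0.76 in control and -0.62, -0.46 and -0.62 with fibrinogen. Gfap thus rose by 0.18 more than Vim on the log2 scale, without overlap of the groups (exact p = 0.1, the smallest possible). The rise of Gfap exceeded the change of Nes by 0.43, of Nefm by 0.89 and of Nefl by 0.97, each without overlap and each with exact p = 0.1. Adjusted over these 4 comparisons, p was 0.1 for each. In control, Gfap stood at a mean of 9.68, Nes at 6.18, Nefm at 6.45 and Nefl at 5.42. The processing compresses differences of dim probes, and its part in the excesses over Nes, Nefm and Nefl was not tested. With any single array left out the excess over Vim lay between 0.12 and 0.20, and that over Nes between 0.34 and 0.51. Control 2 stood highest of the controls for Gfap, Vim, Nefm and Nefl and lowest for Nes.

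**Figure D2:**
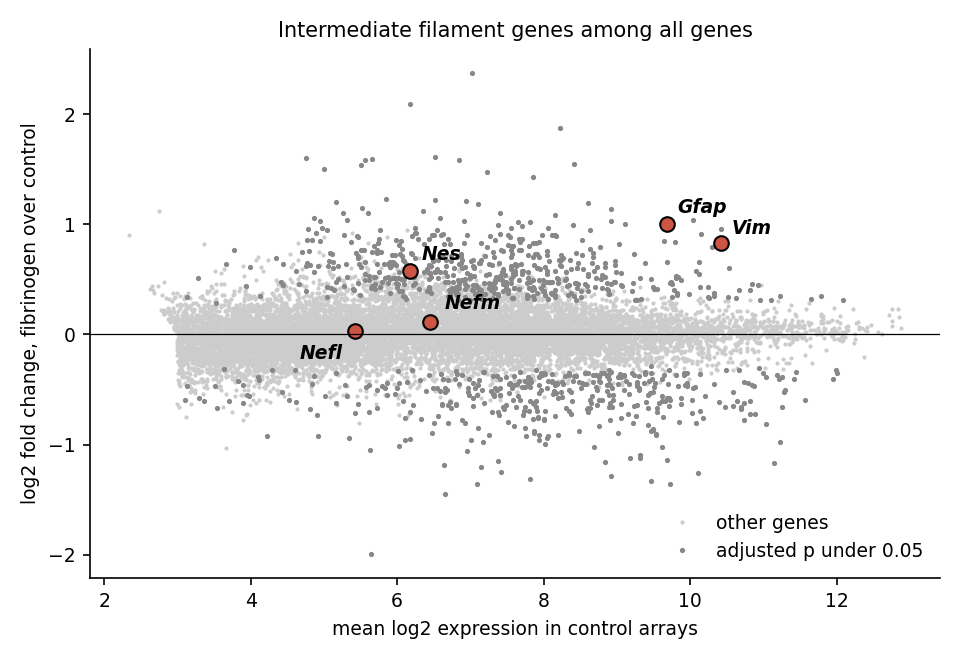
Log2 fold change (fibrinogen over control) against mean log2 expression in control for all 13355 genes; dark grey points passed an adjusted p of 0.05, and the 5 filament genes are red. Gfap and Vim lie above the bulk of genes of like brightness at 1.00 and 0.83, Nes at 0.58, and Nefm and Nefl lie within the bulk.

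Among 10 other measured filament genes outside the keratins, 2 rose, none fell and 8 did not pass. Of all 13355 genes, 7.16% were called in either direction. The median log2 fold change of the 10 genes was 0.02, beside 0.003 for all genes. Ina, which encodes alpha-internexin, a type IV partner of the neurofilament chains, was at 8.02, 8.41 and 8.38 in control and at 8.99, 8.92 and 8.98 with fibrinogen. It rose 1.62-fold without overlap (log2 fold change 0.69, SE 0.12, limma adjusted p = 0.0158), a call lost without fibrinogen 1, 2 or 3 (adjusted p = 0.071, 0.0575 and 0.0658) as well as in the unmoderated test (adjusted p = 0.084). Lmnb1, the gene of lamin B1 in the nuclear lamina, was at 8.48, 8.65 and 8.46 in control and at 9.17, 9.29 and 9.28 with fibrinogen. That 1.64-fold rise (log2 fold change 0.72, SE 0.08, limma adjusted p = 0.00487) held with any single array left out (highest adjusted p = 0.0281).

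The A-type lamin gene Lmna did not pass, with a log2 fold change of -0.15 (95% interval -0.36 to 0.07). Prph, the gene of peripherin, a type III protein of peripheral neurons, was higher on all 3 fibrinogen arrays (5.17 to 5.28, against 4.45 to 5.03 in control) but did not pass (log2 fold change 0.52, adjusted p = 0.0842). It did pass without control 3 (adjusted p = 0.0308). The neurofilament heavy chain gene Nefh was at 0.05 (95% interval -0.30 to 0.41), which changed sign without control 2 or fibrinogen 2. Des (desmin, the filament of muscle) was at -0.10, Synm (synemin, a vimentin partner) at -0.01, Sync (syncoilin) at 0.25, Iffo1 at -0.20 and Bfsp1 (filensin of the lens) at -0.15, none past the test. Synm changed sign without control 2.

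The keratins, the filaments of epithelia, served as relatives that glia are not known to build in quantity. None of 37 measured keratin genes passed in limma or with the unmoderated test, and 0 had an unadjusted p under 0.05 in the first and 1 in the second. Over all 13355 genes, 7.16% passed in limma and 500 genes passed the unmoderated test. An unadjusted p under 0.05 in limma was found for 2815 of all genes. In control, 36 of the keratin genes lay below the array median. Their log2 fold changes ran from -0.23 to 0.36 with a median of -0.03. Krt8 and Krt18, a pair of simple epithelia, were at -0.12 (95% interval -0.38 to 0.15) and -0.03 (95% interval -0.25 to 0.18). The sign of the latter turned with quantile normalization and without control 1.

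**Figure D3:**
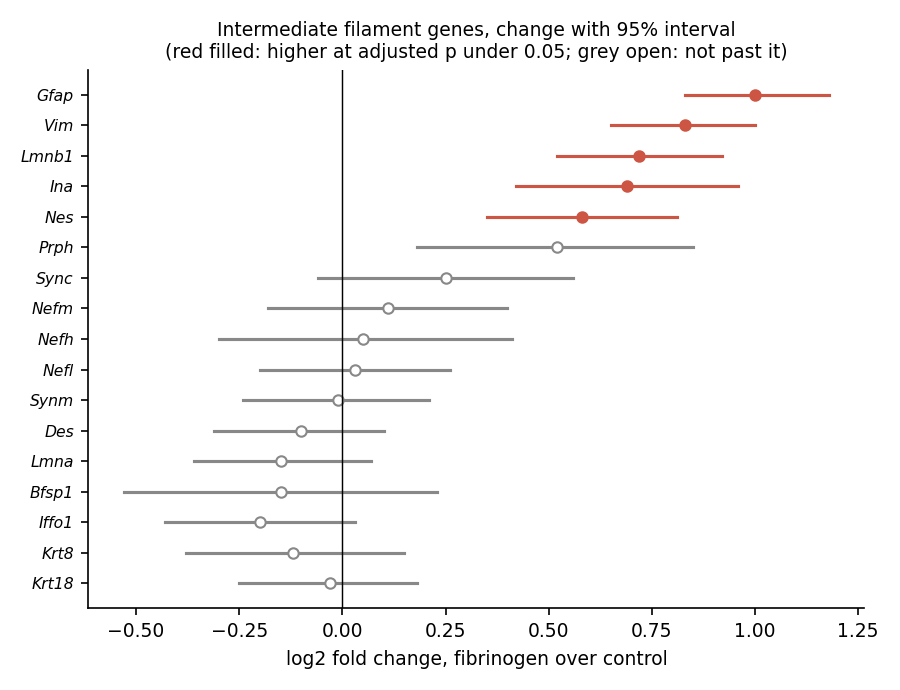
Log2 fold change with its 95% interval for the 5 filament genes, their 10 measured relatives outside the keratins, and Krt8 and Krt18. Red filled points (Gfap, Vim, Lmnb1, Ina and Nes) passed an adjusted p of 0.05, and the intervals of Nefm, Nefl and Nefh span 0.

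Some chaperones that bind intermediate filaments changed on these arrays. Of 17 measured linker and chaperone genes, 4 rose, 1 fell and 12 did not pass, with a median log2 fold change of -0.02. The called share was 29.4%, beside 7.16% of all genes. The called genes were Hspb1, Hspb6, Bag3, Cryab and Hspb8, all chaperones or their co-factor, while the chaperone genes Hspb2, Hspa8 and Dnajb6 were at -0.06, -0.02 and -0.02 and did not pass. Hspb1, a small heat shock protein that binds filaments and limits their tangling, was at 8.39, 8.50 and 8.38 in control and at 10.02, 9.94 and 9.97 with fibrinogen. This 2.93-fold rise (log2 fold change 1.55, SE 0.07, limma adjusted p = 0.000898) compares with a log2 fold change of 1.00 for Gfap, a difference that was not tested. Cryab (alpha B-crystallin, which with Gfap forms the Rosenthal fibers of Alexander disease) rose 1.49-fold from 6.36 ± 0.11 to 6.93 ± 0.06 (SD, n = 3; limma adjusted p = 0.0107), a call lost without fibrinogen 1 (adjusted p = 0.0514).

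Hspb6, another small heat shock protein, and Bag3, a co-chaperone of selective autophagy, rose 1.54-fold each. Hspb8, a partner of Bag3, went the other way: it was at 6.98, 6.96 and 6.90 in control and at 5.93, 5.61 and 6.11 with fibrinogen, a 2.09-fold fall without overlap (limma adjusted p = 0.00503). The unmoderated test did not call Hspb6 or Hspb8 (adjusted p = 0.0502 and 0.0516). The 9 measured linkers, which tie filaments to junctions and other cytoskeleton, were grouped apart after the values were seen. They ran from -0.15 to 0.15, with none past an unadjusted p of 0.05 in limma and none past the unmoderated test. Over all 13355 genes, 2815 passed the first and 500 the second. The difference of the linkers from the chaperones was not tested. Plec, the gene of plectin, the main crosslinker of vimentin and Gfap filaments, was at 0.11 (95% interval -0.11 to 0.32).

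Enzymes that modify, cut or tag filament proteins moved in both directions: 5 of 27 measured genes rose, 2 fell and 20 did not pass, with a median log2 fold change of 0.04. The called share was 25.9%, beside 7.16% of all genes. Padi2, the peptidylarginine deiminase of glia, which citrullinates Gfap, vimentin and myelin basic protein, was at 7.78, 8.26 and 8.08 in control and at 8.71, 8.90 and 8.80 with fibrinogen. It rose 1.70-fold without overlap (log2 fold change 0.76, SE 0.13, limma adjusted p = 0.0173). Trim2, a ubiquitin ligase of the neurofilament light chain, fell 1.61-fold from 8.02 ± 0.09 to 7.33 ± 0.19 (SD, n = 3; limma adjusted p = 0.0145). Both calls were lost without control 3, fibrinogen 1 or fibrinogen 2 (adjusted p from 0.0521 to 0.0712), that of Padi2 also without fibrinogen 3 (adjusted p = 0.0674), and both with the unmoderated test.

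Plk1 and Cdk1, mitotic kinases that phosphorylate vimentin as filaments come apart in division, rose 1.39- and 1.41-fold (limma adjusted p = 0.0117 and 0.0311), and the kinase gene Camk2b rose 1.33-fold (adjusted p = 0.0281). Leaving out fibrinogen 2 ended the call of Plk1 (adjusted p = 0.0541). Leaving out any single array ended those of Camk2b and Cdk1 (highest adjusted p = 0.104 for each), and neither was called in the unmoderated test (adjusted p = 0.0588 and 0.101). The protein kinase C genes Prkce and Prkca were at 0.48 and -0.38 (adjusted p = 0.0496 and 0.0485), and these, with Cdk1, were picked after their values were seen. The call of Prkca ended without any single array (adjusted p from 0.0883 to 0.147) and that of Prkce without any but control 3 (highest adjusted p = 0.156). With any single array left out, the count of called enzymes lay between 0 and 3. It was 0 without fibrinogen 2, where 10 of the 27 had an unadjusted p under 0.05. Over all 13355 genes, 358 to 592 were called with a single array left out, and 378 without fibrinogen 2.

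Lifr and Cntfr, receptor genes of the cytokine family that induces Gfap in glial precursors, rose with fibrinogen, and so did Nfix and Nfia, whose NFI factors bind glial genes. The receptor gene Osmr of the same family was also called, but lost its call in several settings given below. These cytokines (LIF, CNTF, oncostatin M and relatives) act through the shared subunit gp130 and the transcription factor STAT3. Of 33 measured genes of this pathway and of glial transcription, 5 rose, none fell and 28 did not pass (15.2% called, beside 7.16% of all genes). The median log2 fold change was 0.14, against 0.003 for all genes, and 28 of the 33 changes were positive, against 6714 of 13355 over all genes.

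Lifr, the LIF receptor, was at 6.54, 6.49 and 6.59 in control and at 7.47, 7.47 and 7.54 with fibrinogen. It rose 1.94-fold (log2 fold change 0.95, SE 0.07, limma adjusted p = 0.00162). Cntfr, the CNTF receptor subunit, rose 1.45-fold from 8.79 ± 0.06 to 9.32 ± 0.04 (SD, n = 3; limma adjusted p = 0.00748). Osmr, the oncostatin M receptor, picked after its values were seen, was at 4.77, 4.99 and 5.09 in control and at 5.57, 5.86 and 6.50 with fibrinogen, with a wide spread in the treated group (log2 fold change 1.03, SE 0.23, limma adjusted p = 0.0408). Its call was lost without any single control array or fibrinogen 2 (adjusted p from 0.0874 to 0.113). It was also lost in the unmoderated test (adjusted p = 0.175) and with every probe tested on its own (adjusted p = 0.0613). In control, Osmr lay below the median of the arrays.

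The genes of the signal chain behind these receptors did not pass. Il6st, the gene of gp130, also picked afterwards, was at 0.09 (95% interval -0.10 to 0.28), and Stat3 at 0.18 (95% interval 0.00 to 0.36, limma adjusted p = 0.233). Socs3, a STAT3 target that feeds back on the receptors, was at 7.24, 7.80 and 7.54 in control and at 8.00, 7.89 and 8.24 with fibrinogen. Its groups did not overlap, but its change of 0.52 did not pass (adjusted p = 0.109). It did pass when dim genes, those below the median brightness, were left out (adjusted p = 0.0368) and with trended, robust moderation (adjusted p = 0.0189). The ligand genes Lif and Cntf, picked afterwards, were at 0.06 each, with 95% intervals of -0.20 to 0.33 and -0.52 to 0.64.

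Among transcription factors, Nfix was at 10.32, 10.46 and 10.48 in control and at 11.43, 11.34 and 11.38 with fibrinogen, a 1.95-fold rise (log2 fold change 0.96, SE 0.08, limma adjusted p = 0.00166). Nfia, an NFI factor known for opening glial genes during the onset of gliogenesis, rose 1.55-fold from 8.98 ± 0.07 to 9.62 ± 0.05 (SD, n = 3; limma adjusted p = 0.00489). Both calls held with any single array left out (highest adjusted p = 0.0153 and 0.0298). Their relatives Nfib and Nfic, picked afterwards, were at 0.14 and 0.08 and did not pass.

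**Figure D4:**
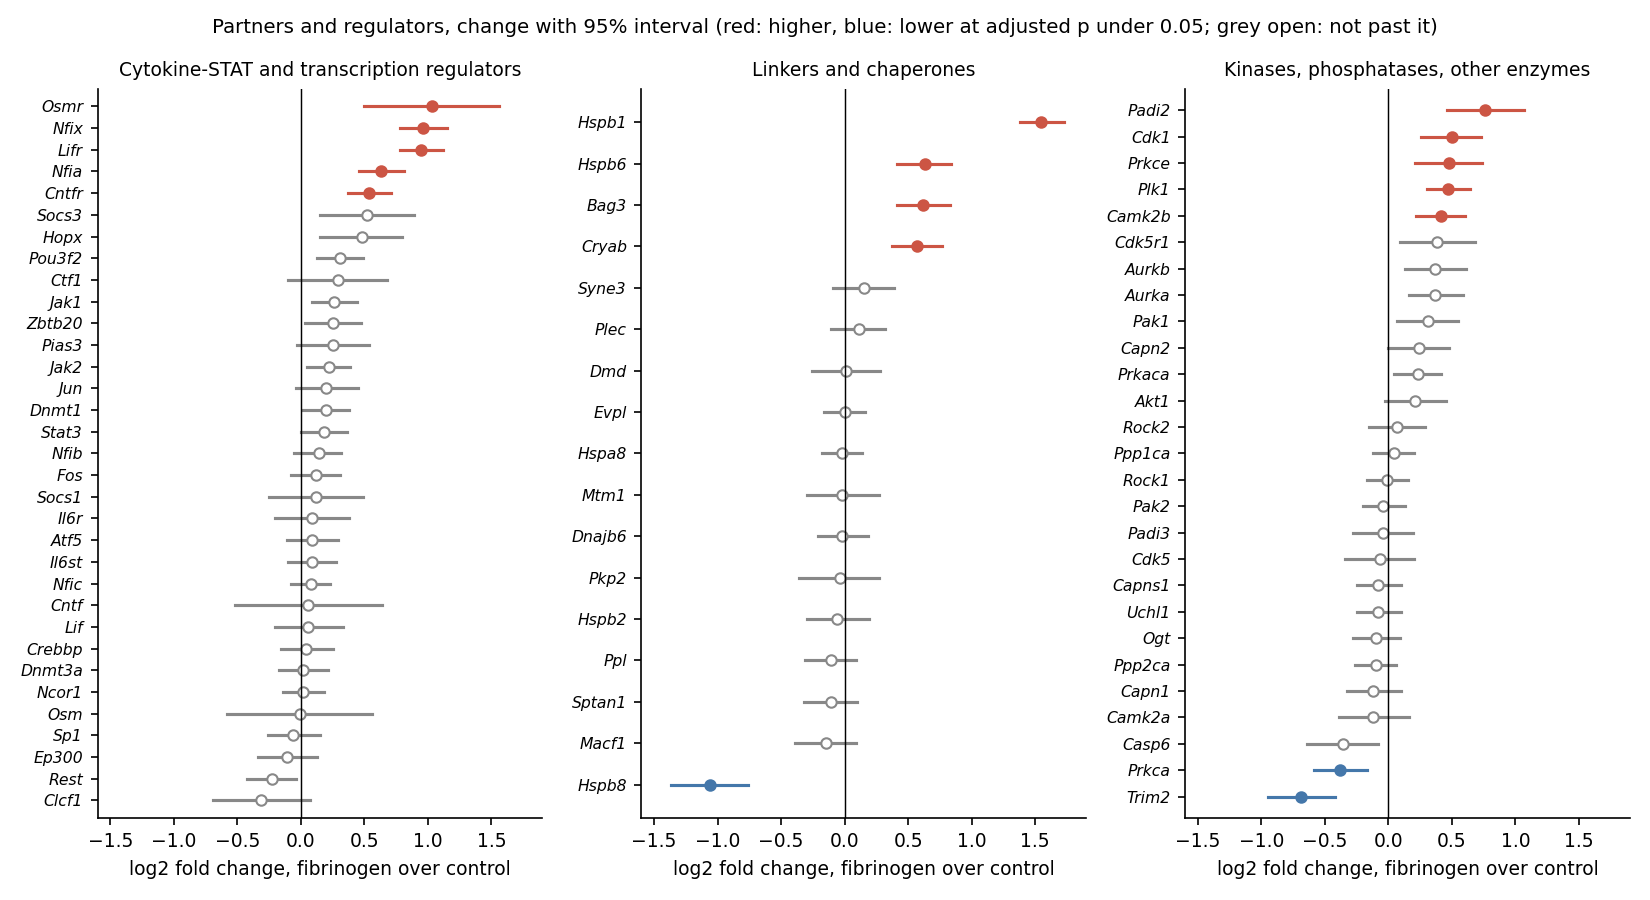
Log2 fold change with its 95% interval for 33 regulators of Gfap (left), 17 filament linkers and chaperones (middle) and 27 modifying enzymes (right). Red points rose and blue points fell at an adjusted p under 0.05; Lifr, Nfix, Hspb1 and Padi2 lie to the right, and Hspb8 and Trim2 to the left.

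The genes closest in profile to each filament gene that rose were found by the Euclidean distance between log2 profiles over the 6 arrays. Each profile was set to 0 at its control mean, and symbols of uncharacterised loci were left out. The distances describe these arrays and carry no test. A small distance implies a like fold change, so the changes given for these genes follow from how they were picked. Closest to Gfap were Anxa6 (annexin A6, distance 0.15), Dclk1 (a microtubule-binding kinase, 0.16), Mmp15 (a membrane metalloprotease, 0.17), Timp4 (a metalloprotease inhibitor, 0.18) and Sparc (a matricellular protein of glia and bone, 0.18). Their log2 fold changes lay between 0.95 and 1.03. Anxa6 was at 8.33, 8.45 and 8.43 in control and at 9.42, 9.36 and 9.41 with fibrinogen.

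Closest to Vim were Ddah1 (distance 0.12), Pxdc1 (0.12), Sdc3 (syndecan 3, a heparan sulfate proteoglycan, 0.13), Timp1 (a metalloprotease inhibitor, 0.14) and Nek6 (a mitotic kinase, 0.14). Their changes lay between 0.79 and 0.85. Closest to Nes were Ptpn9 (0.13), Arid5a (0.14), Cryab (0.14), Gatm (a creatine synthesis enzyme, 0.16) and Gng3 (0.16), with changes from 0.52 to 0.63.

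Gfap is used as a marker of astrocytes and Vim is shared by many cells, so marker lists of cell types are given beside them. Of 14 measured astrocyte markers other than Gfap and Vim, 6 rose, none fell and 8 did not pass (42.9% called, beside 7.16% of all genes). The mean log2 level of the list ran from 7.64 to 7.68 in control and from 7.95 to 7.98 with fibrinogen. Ndrg2 rose 2.20-fold, Atp1b2 (a sodium pump subunit) 1.88-fold and the glutamate transporter genes Slc1a2 and Slc1a3 1.79- and 1.52-fold. Aqp4, a water channel, and Gja1, of gap junctions, were at -0.24 and -0.10 and did not pass. The astrocyte markers Aldh1l1 and Sox9 were not analysed here.

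Of 8 measured OPC markers, 4 rose and none fell (50.0% called, beside 7.16% of all genes). Pdgfra was among the rises at 0.58 (limma adjusted p = 0.01), a call lost without fibrinogen 1 (adjusted p = 0.0504). Sox10, at -0.09, did not pass. All 8 markers lay above the array median in control. That level was not particular to this list. In control, just 2 of 11 oligodendrocyte, 2 of 14 astrocyte and 4 of 19 neuron markers lay below the median. Of 11 oligodendrocyte markers, 7 fell and 1 rose (72.7% called, beside 7.16% of all genes). The list mean lay between 8.91 and 8.98 in control and between 8.59 and 8.66 with fibrinogen. Fa2h, Ugt8 and Enpp6 fell 1.87-, 1.75- and 1.73-fold, and Ermn rose 2.83-fold (limma adjusted p = 0.00264), the largest change of the list. Mbp counts among the falls at -0.40 (limma adjusted p = 0.0468). Its adjusted p lay between 0.0638 and 0.156 with 1 array left out, and was 0.111 in the unmoderated test. Of 8 neural stem and progenitor markers, which Nes is often read beside, 2 rose (Notch1 and Msi1) and none fell, and the list mean ran from 7.47 to 7.58 in control and from 7.56 to 7.73 with fibrinogen. The call of Notch1 was lost without any single array but control 2 (highest adjusted p = 0.0748), and that of Msi1 without any single array (highest adjusted p = 0.111).

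The neuron markers, which bear on Nefl and Nefm, went both ways: 4 of 19 rose, 3 fell and 12 did not pass, and the list mean ran from 7.51 to 7.62 in control and from 7.49 to 7.53 with fibrinogen. Syt1 and Eno2 fell 2.24- and 1.58-fold, and Elavl4 and Stmn3 rose 1.87- and 1.78-fold. The unmoderated test did not call Stmn3 (adjusted p = 0.0529). Tubb3, Map2 and Snap25 were at -0.26, -0.07 and 0.07 and did not pass. The fibroblast and pericyte markers, whose cells are rich in vimentin, had 1 rise among 11 genes (Mgp, not called in the unmoderated test, adjusted p = 0.0609), and 10 of them lay below the array median in control. The list mean ran from 4.54 to 4.67 in control and from 4.64 to 4.71 with fibrinogen. Of 15 microglia markers 2 fell in limma, Itgam and Cd53, and 13 lay below the array median. The unmoderated test called 0 of the 15, and the calls of Itgam and Cd53 were lost without 5 and 4 of the 6 single arrays (highest adjusted p = 0.122 and 0.13). Of 5 endothelial markers, all below the array median, none passed in limma or the unmoderated test, and none had an unadjusted p under 0.05 in limma. Of 7 Schwann cell markers 1 fell in limma and 0 passed the unmoderated test. Over all 13355 genes the unmoderated test called 500, and 2815 had an unadjusted p under 0.05 in limma. In lists of 5 to 15 genes, 0 calls by the unmoderated test therefore say little. Called shares in limma were 36.8% of the neuron and 9.09% of the fibroblast and pericyte markers, beside 7.16% of all genes. They were 13.3% of the microglia and 14.3% of the Schwann cell markers. The part of other cell types in the rises of Gfap, Vim and Nes was not tested.

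**Figure D5:**
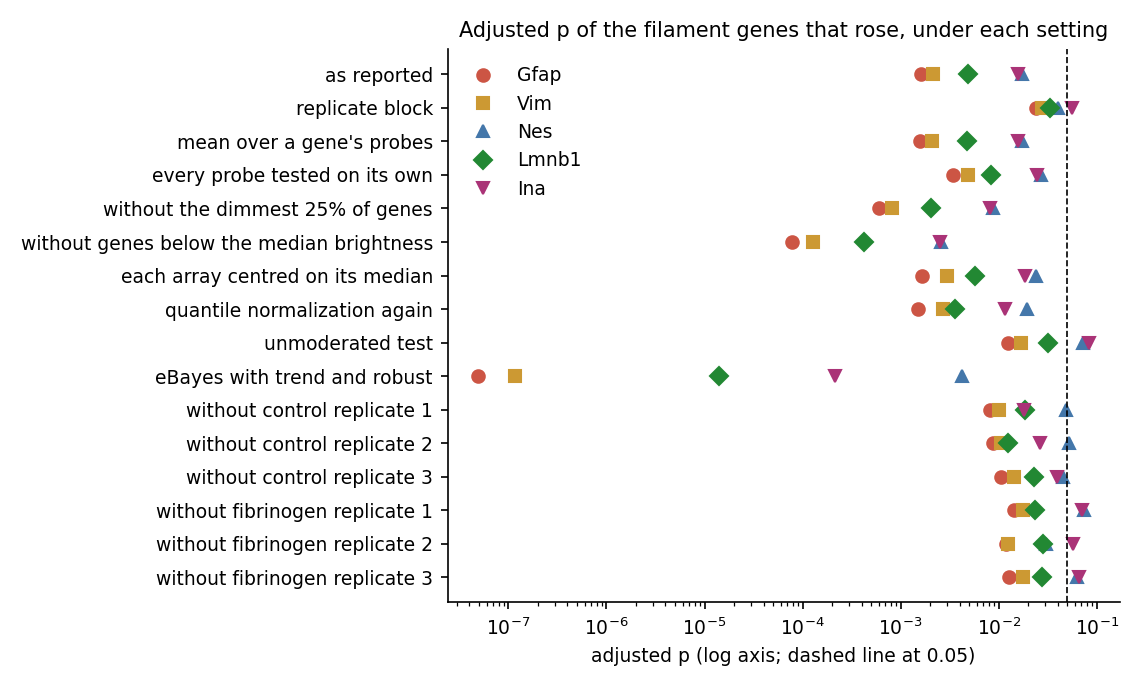
Adjusted p, on a log axis, of the 5 filament genes that rose (Gfap, Vim, Nes, Lmnb1 and Ina) as reported and under each of 15 alternative settings, with the threshold of 0.05 as a dashed line. Gfap, Vim and Lmnb1 stay left of the line in every setting shown, with a highest value of 0.0335 for Lmnb1, and Nes and Ina cross it in some.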

How the data were processed

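RNA of 6 OPC samples was hybridised to rat gene arrays. The authors deposited log2 expression values per probe set. Per the submitters' processing notes, RMA (background correction, quantile normalization and probe summary, which compresses differences of dim probes) and limma were used; versions, settings and genome build are not given in the sources used here. The table had 26312 probes, of which 23631 had a value on every array. Probes were named from the platform annotation (14083 valued probes with 1 symbol, 228 with several and 9320 unnamed), 14059 of the first matched a current gene record, and the probe with the highest mean stood for a gene. limma 3.58.1 (R 4.3.3, lmFit and eBayes, no covariate) compared the groups over 13355 genes with Benjamini-Hochberg adjustment, and was tested on simulated data. The number of arrays limits the precision (median SE 0.104). The filament genes and the lists were chosen with earlier results of these data known, so no list count is independent support. Genes were named from the 5 filament genes, their non-keratin relatives, up to 4 genes of each other list with the smallest p, 20 genes fixed by name, and the 5 closest profiles. Not every gene under this rule is named. Hspb2, Hspa8, Dnajb6 and the genes said to be picked afterwards were named outside it. Array titles share numbers 1 to 3, which were not used in the fit.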

Additional observations from a re-analysis of the deposited data

How the results depend on the processing

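The 15 alternatives were other probe choices, filters, scalings and variance models, the replicate block, and each array left out. Gfap (0.96 to 1.04) and Vim (0.78 to 0.87) kept their call in all of them. Nes, at 0.58, lost it with the unmoderated test (0.58, adjusted p = 0.0724) and without 3 of the 6 arrays (0.51 to 0.65 over all 6). Nefl, never called, turned sign with arrays centred (-0.02) and without control 1 or fibrinogen 2 (-0.04 to 0.10 over the 6 arrays). Krt18 was at 0.02 with quantile normalization and between -0.09 and 0.04 with 1 array left out, Nefh between -0.10 and 0.19, and Synm between -0.08 and 0.07. The count over all genes was 343 with the replicate block, 500 with the unmoderated test, 1455 without genes below the median brightness, 1617 with trended, robust moderation, and 358 to 592 with 1 array left out. Ina (adjusted p = 0.056) and Bag3 (adjusted p = 0.0552) were among the named genes not called with the block. Non-keratin relatives called numbered 1 with the block (Lmnb1), 1 unmoderated, and 1 to 3 with 1 array left out; linkers and chaperones 3 unmoderated; enzymes 2 with the block, 1 unmoderated, 12 without genes below the median brightness and 0 to 3 with 1 array left out; regulators 10 and 8 without genes below that brightness and with trended, robust moderation. The cause was not tested. The deviations of same-numbered arrays from their group means had correlations of 0.02, -0.14 and -0.07 over all genes. With 3 arrays per group, these values cannot show whether cultures were shared. The labels do not say that the numbers pair cultures, so the replicate block is not read as a paired analysis. Among 1148 gene and setting pairs for 78 other named genes, 1018 kept direction and call, 119 lost the call, 6 gained it and 5 turned sign. No detection call accompanies the values, so a low probe such as that of Nefl may not measure transcript.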
